A study of Sus scrofa with 36 samples.

Results

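Leukocyte receptors, cytokines and their receptors were followed in neonatal pig heart as a set of genes chosen by symbol. The set takes the protein-coding genes of the total RNA gene table named CD with a number, or belonging by name to the CCL, CCR, CXCL, CXCR, IL, TLR, IRF, TNFRSF, TNFSF and IFNAR series, with at least 10 reads in at least 3 libraries. Of 60 genes with such a symbol, 41 passed that read minimum and make up the set, within 5526 tested genes of 9815 with counts. A symbol does not fix a role, so the set also holds IL4I1, a secreted amino acid oxidase, and IRF2BP1, a partner protein of an interferon regulatory factor, neither of which is a cytokine or a receptor.

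Hearts of domestic Yorkshire pigs, normally fed and given no treatment, were collected at P1, P3, P7 and P28 (1, 3, 7 and 28 days after birth). The 12 total RNA libraries used here came from batch cd, with 3 pigs at each age and each pig sampled at 1 age. Each age group of the study held both sexes, and the sex behind a library was not used here, so sex was not part of any comparison. Libraries are named by age and by the numbers 4 to 6 of the table's columns. The series was made to find circular RNAs that act on cardiomyocyte proliferation, and the gene counts read here come from its total RNA sequencing.

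The table lists genes of chromosomes 1, 2, 6 and 13 and ends within chromosome 2, so library totals of 8887176 to 14883849 reads cover those genes and not the full sequencing depth. Levels are given as CPM, reads per 1e6 reads listed, after TMM scaling between libraries. A single read was worth 0.0665 to 0.118 CPM. The signal recognition particle RNA genes named Metazoa_SRP took 7.09% to 19.7% of the reads, and the 41 genes together took 0.401% to 0.491%. Heart muscle markers were high in every library, with a summed level of 6 tested markers between 69121 and 90959 CPM. Of the 12 libraries, P3 library 5 was most often at an extreme, with the highest level for 22.2% of the 5526 genes and the lowest for 22.7%, followed by P28 library 4 with 14.2% and 12.2%. For most leukocyte lineages the table holds few defining markers, so the cell type behind a gene was not determined.

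Cytokines and chemokines are secreted or membrane-bound ligands that recruit, expand and instruct leukocytes through receptors on the cell surface. CD antigens are surface proteins first numbered on leukocytes, and many are also carried by endothelial cells, fibroblasts or muscle. In the newborn heart, resident macrophages of embryonic origin are the main leukocytes, and monocytes, lymphocytes and mast cells join them after birth. In bulk tissue, fewer cells of a type and less RNA per cell cannot be told apart, which holds for every level below.

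The families were unevenly detected. Reads passed the minimum for 16 of 19 CD antigens, 5 of 8 interleukins, 6 of 11 interleukin receptors, 4 of 5 TNF receptor family members and each of the 2 TNF ligands, 3 IRF genes, TLR4 and IFNAR1. Of the CCR genes, 3 passed the minimum and 4 did not. Neither of the 2 CCL ligands, CCL17 and CCL22, nor the single CXCR gene, CXCR6, passed it. Of the 19 genes left out, 13 had no library above 9 reads, and IL28B and CCL17 had 0 reads in all 12 libraries. A count of 3 reads, taken as the limit a count of 0 allows, corresponds to 0.199 to 0.354 CPM in these libraries, counting error only.

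Levels between genes were compared per length, as mean CPM per kilobase over the 12 libraries. IRF8, a transcription factor of macrophages and B cells, stood first at 682 CPM per kilobase, followed by CD164, a sialomucin of many cell types, at 154 and CD79A, the signalling chain of the B cell receptor, at 93.5. IRF3 (54.3 CPM per kilobase), IFNAR1 (44.4) and IL17B (38.6) came next. At the lower end stood IL17C at 0.202, CD226 at 0.241 and IL5RA at 0.284 CPM per kilobase. Among receptors of circulating leukocytes, CCR2 stood at rank 26 and CD5 at rank 38 of 41 by this measure.

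**Figure D1:**
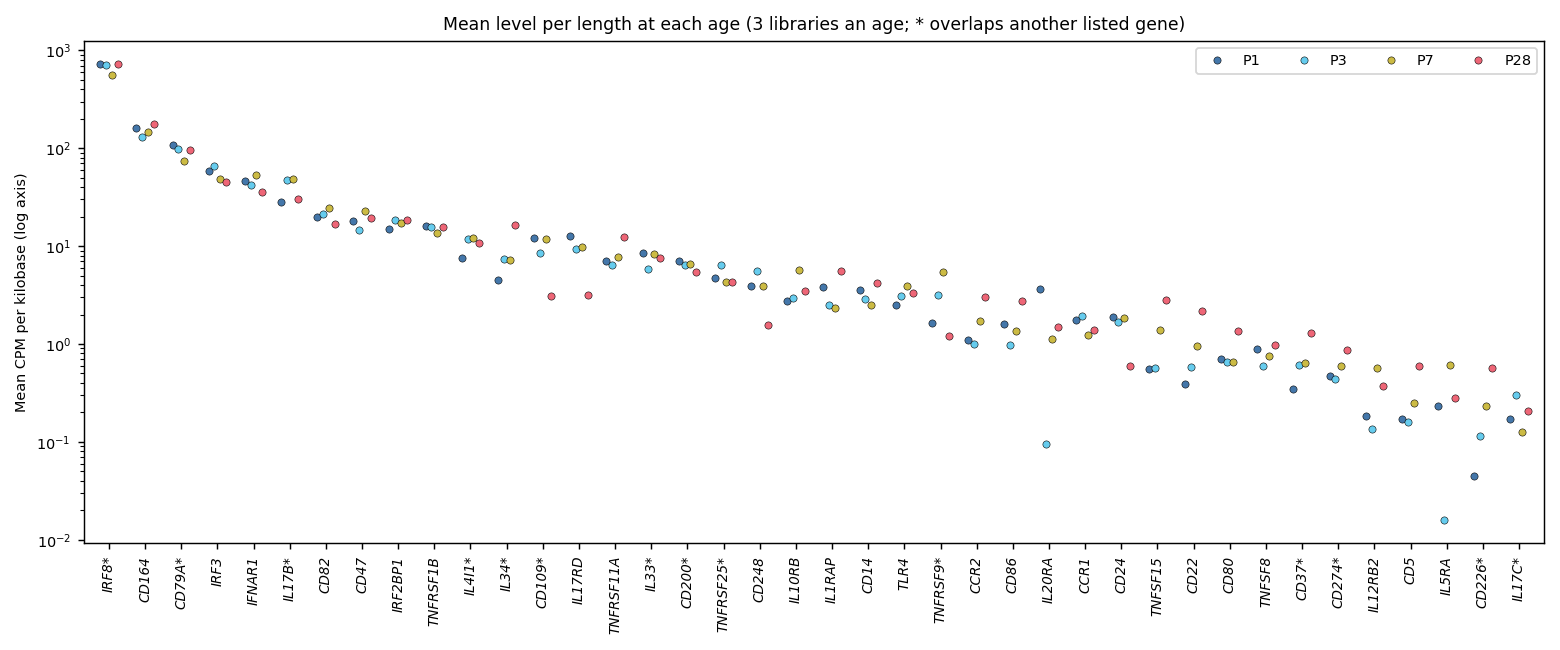
Mean level per length (CPM per kilobase of gene length, log axis) of 40 of the 41 genes at P1, P3, P7 and P28, each point the mean of 3 libraries, ordered by the mean over the 12 libraries, with an asterisk on genes that overlap another listed gene. Means over the 12 libraries run from 682 for IRF8 to 0.202 for IL17C, and the P28 points of CD109 and IL17RD lie below and those of IL34, TNFSF15 and CD22 above the other ages.

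Of the 3 highest ranks, 2 belong to genes that share bases with an abundant neighbour. IRF8 (chromosome 6, 3041645 to 3137549) overlaps COX4I1, a subunit of cytochrome c oxidase that heart muscle makes in quantity, by 6531 bases, and its read count was 76.4% to 83.5% of that of COX4I1 in every library. CD79A (chromosome 6, 49975957 to 50010059) overlaps the unnamed gene ENSSSCG00000003042, and its count was 42.6% to 48.0% of that gene's count throughout. The strand setting of the counting is not given in the sources used here, so the share of these reads that comes from IRF8 or CD79A transcripts was not determined. In all, 14 of the 41 genes overlap another listed gene and 27 overlap none.

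**Figure D2:**
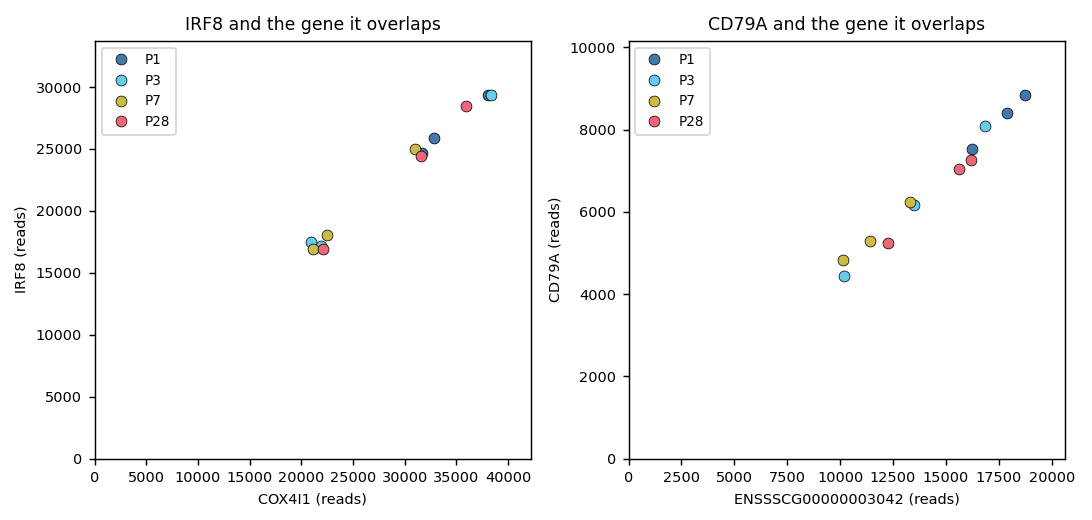
Read counts of IRF8 against COX4I1 (left) and of CD79A against ENSSSCG00000003042 (right), both linear axes from 0, each point 1 of the 12 libraries coloured by age. The points of each pair lie near a single line through the origin, with ratios of 76.4% to 83.5% and 42.6% to 48.0%.

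The 41 genes were compared between ages with edgeR's quasi-likelihood test, fitted over all 5526 genes with Benjamini-Hochberg adjustment, and a call needs an adjusted p under 0.05. Most calls involved P28. Against P1, 10 of the 41 genes were higher at P28, among them CD226, CD22, TNFSF15, CD37, IL34, CD5, CCR2, CD80 and TNFRSF11A, where 7.38% of all genes tested were called in that direction. CD109, IL17RD, CD248 and IFNAR1 were lower, which is 4 of 41 against 7.93% of all genes. Log2 fold changes had a median of 0.25 over the 41 genes and 0.00 over all genes, and a median size of 0.42 against 0.31. Calls in either direction came to 14 of the 41, or 34.1%, against 15.3% of all genes.

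From P7 to P28, 8 genes were higher (IL34, IL1RAP, TNFRSF11A, CD22, CD80, CD86, TNFSF15 and CD37; 8.34% of all genes) and 6 were lower (CD109, IL17RD, TNFRSF9, IFNAR1, CD248 and CD82; 10.5%), together 14 of 41 against 18.8%. Both comparisons use the same P28 libraries. The first week held few calls. Between P1 and P3 edgeR called 0 of the 41 genes (0.0543% of all genes, 0.0181% higher and 0.0362% lower), with 12 at an unadjusted p under 0.05 against 15.2% of all genes. IL20RA was called there by DESeq2 and by edgeR on the 2 ages alone, with no filter on low counts and without P7 library 4, and CD109 by edgeR without P3 library 6. Between P1 and P7 TNFRSF9 was called higher (1.47% of all genes, with 0.543% lower and 2.01% in all), and between P3 and P7 CD47 and IL5RA were (1.61%, with 0.597% lower and 2.21% in all). Over the 4 ages jointly, 23 of the 41 passed, against 21.4% of all genes. Of the 41, 8 had under 10 reads in at least 1 library (CD37, CD226, IL20RA, IL5RA, IL12RB2, CD5, IL17C and CD24), and for these the read minimum itself can favour genes high at 1 age.

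A looser reading, by libraries alone, gave more genes in the first week. The 3 libraries of each age did not overlap for 11 of the 41 genes between P1 and P3 (16.0% of all genes), 23 between P1 and P7 (30.6%), 23 between P1 and P28 (44.4%), 13 between P3 and P7 (22.9%) and 23 between P7 and P28 (47.0%). With the study's looser thresholds, which leave p unadjusted at up to 0.05 and ask for a log2 change larger than 0.5 either way, the counts were 11 (10.6% of all genes), 14 (11.7%), 16 (23.1%), 9 (13.0%) and 21 (25.1%), and 28 over the 4 ages by the p alone (37.5%). Of the 23 genes that passed over the 4 ages at an adjusted p, 9 did so in each of the 12 fits that left a library out. Of the 14 calls between P1 and P28, 8 held in each of those fits, and of the 14 between P7 and P28, 7 did.

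**Figure D3:**
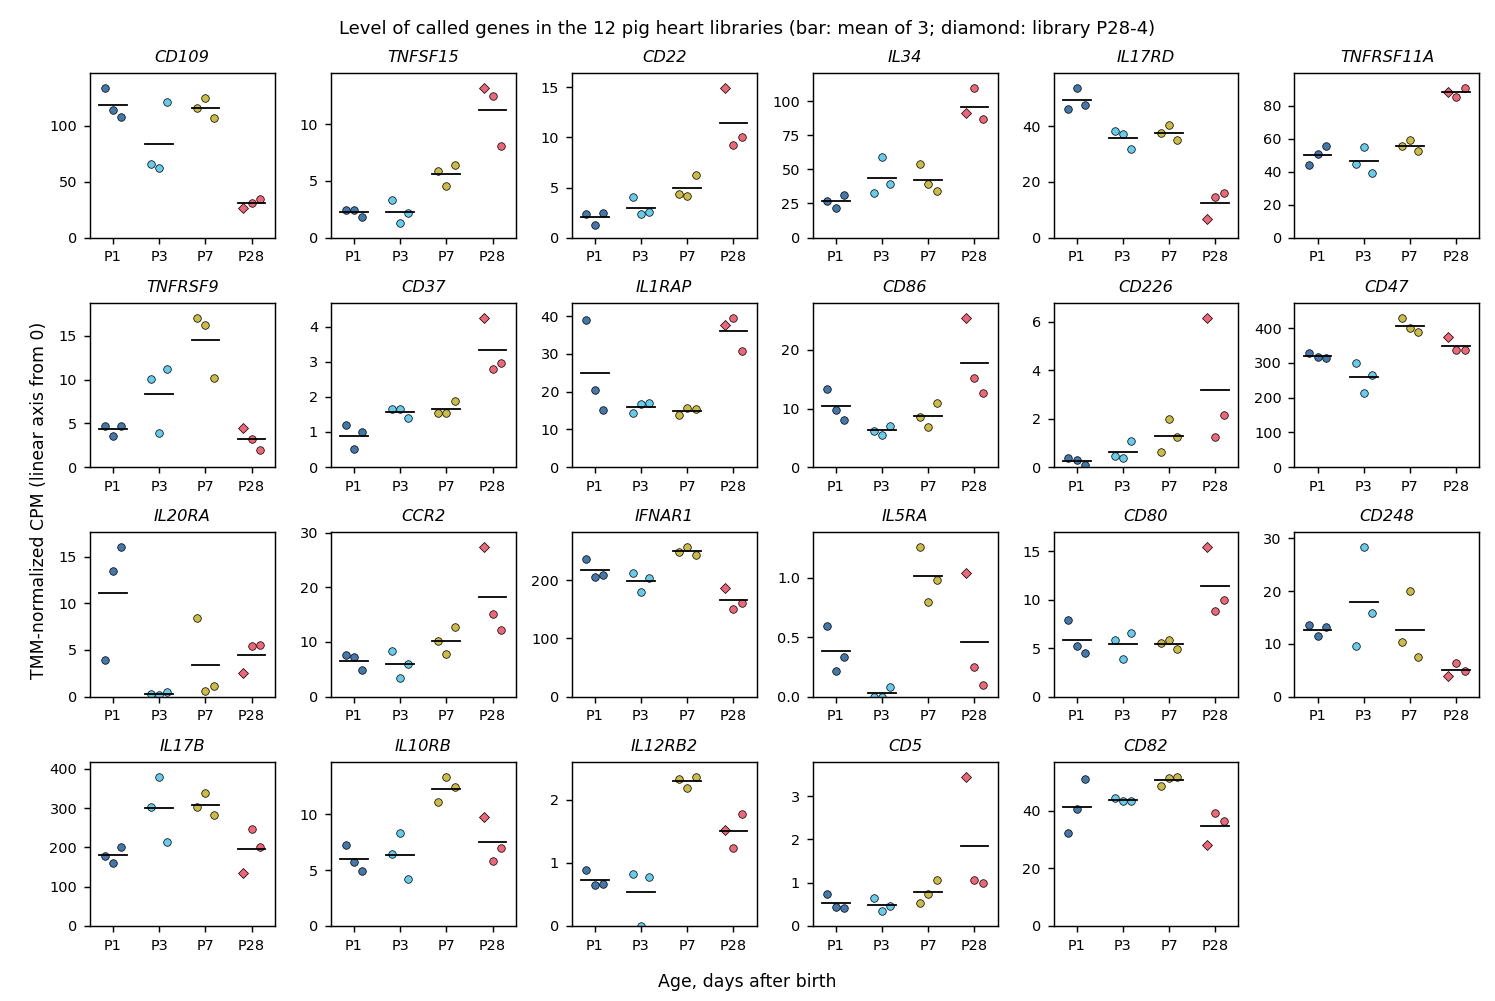
TMM-normalized CPM (linear axes from 0) of 23 genes called in a test, in each of the 12 libraries by age, with a bar at the mean of 3 and a diamond for P28 library 4. CD109 and IL17RD are lowest at P28, TNFRSF9 peaks at P7, and IL20RA is near 0 in the 3 P3 libraries. The diamond is the highest of the 12 points for TNFSF15, CD22, CD37, CD86, CD226, CCR2, CD80 and CD5.

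Among the ligands, the cytokines IL34 and TNFSF15 rose. IL34, a second ligand of the macrophage growth factor receptor CSF1R, stood at 27.1, 21.4 and 31.3 CPM at P1, 32.7, 58.8 and 39.5 at P3, 54.1, 39.6 and 33.9 at P7, and 91.2, 109.5 and 87.0 at P28. The 3 P28 libraries were above all 9 others, and P3 and P7 lay between P1 and P28. Its level at P28 was 3.61-fold that at P1 (log2 fold change 1.85 ± 0.24 (SE), adjusted p = 0.000563) and 2.26-fold that at P7 (log2 fold change 1.17 ± 0.23 (SE), adjusted p = 0.00461). IL34 (chromosome 6, 13588775 to 13678738) overlaps MTSS2, and its count went from 9.19% to 46.9% of that gene's count across libraries, so the 2 did not keep a fixed ratio.

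TNFSF15, a TNF family ligand made by endothelial and myeloid cells, measured 2.39, 2.45 and 1.81 CPM at P1, 3.32, 1.30 and 2.19 at P3, 5.84, 4.59 and 6.38 at P7, and 13.2, 12.5 and 8.08 at P28. Levels at P1 and P3 overlapped, every P7 library was above them and every P28 library above P7. The change from P1 to P28 was 5.05-fold (log2 fold change 2.34 ± 0.33 (SE), adjusted p = 0.000909), and from P7 to P28 2.01-fold (log2 fold change 1.01 ± 0.31 (SE), adjusted p = 0.0379). The second call was lost without any single P7 library, P28 library 4 or P28 library 5 (adjusted p up to 0.150). Its receptor TNFRSF25, on the same scale, had a log2 fold change of -0.14 (adjusted p = 0.778) from P1 to P28, and TNFSF8, the ligand of CD30 and a neighbour of TNFSF15 on chromosome 1, had 0.15 (adjusted p = 0.808). Without P28 library 4 the sign of both turned, to log2 fold change 0.016, adjusted p = 0.982 for TNFRSF25 and log2 fold change -0.27, adjusted p = 0.654 for TNFSF8.

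IL17B, a cytokine of the IL-17 family, gave 178, 161 and 202 CPM at P1, 303, 380.4 and 214 at P3, 302, 338 and 283 at P7, and 135, 248 and 202 at P28. P3 and P7 were above P1 in every library, and the P28 libraries ran from below P1 into the P3 range. It passed the test over the 4 ages (adjusted p = 0.0386) but no single comparison in the edgeR fit of 4 ages, the nearest being P7 to P28 (log2 fold change -0.66 ± 0.23 (SE), adjusted p = 0.0592). The joint call was lost without 7 of the 12 libraries in turn, each of P1 and P7 and P28 library 6, with an adjusted p up to 0.0892. DESeq2, and edgeR on the 2 ages alone, called it from P1 to P7 and from P7 to P28. IL17B overlaps GRPEL2 and PCYOX1L, and the strand of its reads is not known. IL33, an alarmin held in the nuclei of stromal cells, IL17C, a cytokine of epithelia, and IL4I1 passed no test in the edgeR fit of 4 ages. Their log2 fold changes from P1 to P28 were -0.16, 0.29 and 0.51. On the 2 ages alone, edgeR called IL4I1 higher at P28 than at P1. IL33 overlaps RANBP6, its count being 12.4% to 22.1% of that gene's, and IL17C and IL4I1 also overlap listed genes.

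Cytokine receptors moved in several patterns. IL17RD, a membrane relative of the IL-17 receptors that restrains fibroblast growth factor signalling, was at 46.2, 53.6 and 47.7 CPM at P1, 38.2, 37.0 and 31.9 at P3, 37.6, 40.4 and 34.8 at P7, and 6.50, 14.5 and 16.0 at P28. All 3 P28 libraries were below all others, with the lowest value in P28 library 4. The level fell 4.002-fold from P1 to P28 (log2 fold change -2.00 ± 0.26 (SE), adjusted p = 0.000545) and 3.06-fold from P7 (log2 fold change -1.62 ± 0.25 (SE), adjusted p = 0.00144), and both calls held without any 1 of the 12 libraries.

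IFNAR1, a chain of the type I interferon receptor, had 236, 206 and 208 CPM at P1, 212, 179 and 203 at P3, 248, 257 and 244 at P7, and 187, 149.8 and 161 at P28. P7 was highest and P28 lowest on average, and neither group overlapped P1. The fall was small, 1.31-fold from P1 (log2 fold change -0.39 ± 0.12 (SE), adjusted p = 0.0446) and 1.505-fold from P7 (log2 fold change -0.59 ± 0.12 (SE), adjusted p = 0.00482). The P1 comparison lost its call without any single P1 or P7 library, P28 library 5 or P28 library 6 (adjusted p up to 0.160), while the step from P7 held in every case. IL10RB, the chain shared by receptors of the IL-10 family and a neighbour of IFNAR1 on chromosome 13, stood at 7.24, 5.69 and 4.94 CPM at P1, 6.46, 8.27 and 4.22 at P3, 11.1, 13.4 and 12.4 at P7, and 9.71, 5.76 and 7.00 at P28. The P7 libraries were above all 9 others. It passed over the 4 ages (adjusted p = 0.0390), and the step from P1 to P7 was 2.06-fold without passing with edgeR (log2 fold change 1.04 ± 0.28 (SE), adjusted p = 0.0678), while DESeq2 and the fit of the 2 ages alone called it. That joint call was lost without any single P7 library, P1 library 5 or 6, or P28 library 5 or 6 (adjusted p up to 0.129).

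Among the TNF receptors, TNFRSF11A (RANK), the receptor through which RANKL drives osteoclast formation, measured 44.0, 50.7 and 55.4 CPM at P1, 44.9, 54.8 and 39.1 at P3, 55.7, 59.0 and 52.8 at P7, and 88.5, 85.1 and 90.7 at P28. The P28 libraries were closely grouped and above all others, and the 3 earlier ages overlapped. Its level was 1.76-fold higher than at P1 (log2 fold change 0.82 ± 0.14 (SE), adjusted p = 0.00318) and 1.58-fold higher than at P7 (log2 fold change 0.66 ± 0.14 (SE), adjusted p = 0.00768), and both calls held without any 1 library. TNFRSF9 (4-1BB), a costimulatory receptor of activated T cells, had 4.70, 3.53 and 4.70 CPM at P1, 10.1, 3.90 and 11.2 at P3, 17.1, 16.3 and 10.1 at P7, and 4.41, 3.21 and 1.97 at P28. Levels were highest at P7 and spread widely at P3, and P28 overlapped P1. It was 3.36-fold higher at P7 than at P1 (log2 fold change 1.75 ± 0.38 (SE), adjusted p = 0.0404) and 4.49-fold lower at P28 than at P7 (log2 fold change -2.17 ± 0.39 (SE), adjusted p = 0.00292). The first call was lost without any single P1 or P7 library or P28 library 5 (adjusted p up to 0.147), and the second held throughout. The gene as listed (chromosome 6, 68394470 to 68609746) spans parts of CAMTA1 and 3 unnamed genes with reads, its count being 1.13% to 10.04% of that of CAMTA1.

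TNFRSF1B (TNFR2), a receptor of TNF on leukocytes and endothelium and first of the 4 TNF receptors by CPM per kilobase, stood at 77.9, 65.7 and 51.2 CPM at P1, 44.0, 93.6 and 53.1 at P3, 52.2, 64.8 and 50.2 at P7, and 74.1, 57.1 and 58.0 at P28. The ages overlapped, and no test passed (adjusted p = 0.859 over the 4 ages). The direction of its P28 to P1 difference, -0.042 on the log2 scale, was not stable, being 0.11 without P1 library 4, 0.022 without P28 library 5 and 0.014 without P28 library 6.

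Among the interleukin receptors, IL1RAP, the accessory chain that receptors of IL-1 and IL-33 need to signal, showed 38.9, 20.5 and 15.2 CPM at P1, 14.3, 16.7 and 17.0 at P3, 13.7, 15.8 and 15.3 at P7, and 37.6, 39.6 and 30.7 at P28. A single P1 library, library 4, was as high as P28, while P3 and P7 were low. From P7 to P28 it rose 2.41-fold (log2 fold change 1.27 ± 0.28 (SE), adjusted p = 0.00738), and against P1 it did not pass (log2 fold change 0.53 ± 0.27 (SE), adjusted p = 0.199). Without P1 library 4 the P28 to P1 difference was larger and passed (log2 fold change 1.01, adjusted p = 0.00711).

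IL12RB2, the signalling chain of the IL-12 receptor, was low, at 0.896, 0.648 and 0.659 CPM at P1, 0.831, 0 and 0.781 at P3, 2.34, 2.19 and 2.37 at P7, and 1.52, 1.24 and 1.77 at P28. P7 was above every other library and P28 above P1 and P3. In the edgeR fit of 4 ages it passed only over the ages jointly (adjusted p = 0.0444), a call lost without 9 of the 12 libraries in turn (adjusted p up to 0.0991). Each P1, P7 and P28 library was among those 9. DESeq2 called it from P1 to P7 and from P3 to P7, and edgeR on the 2 ages alone from P1 to P7. IL20RA, a chain of receptors for IL-19, IL-20 and IL-24, ranged widely, with 3.96, 13.5 and 16.1 CPM at P1, 0.277, 0.118 and 0.469 at P3, 8.44, 0.598 and 1.14 at P7, and 2.57, 5.43 and 5.52 at P28. In reads, the P3 libraries held 3, 1 and 6, against 53, 187 and 195 at P1, and 1 of the P7 libraries, library 4, was far above the other 2. It passed over the 4 ages (adjusted p = 0.0162) in all 12 fits that left a library out, while P3 against P1 did not pass in the edgeR fit of 4 ages (log2 fold change -5.14 ± 1.02 (SE), adjusted p = 0.0696). That difference was called by edgeR on the 2 ages alone, with no filter on low counts and without P7 library 4, and by DESeq2. Without P7 library 4, edgeR also called IL20RA between P1 and P7 and between P7 and P28, and DESeq2 called it between P3 and P7.

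IL5RA, the IL-5 receptor chain of eosinophils, was at the edge of detection. Its reads numbered 8, 3 and 4 at P1, 0, 0 and 1 at P3, 14, 12 and 12 at P7, and 13, 3 and 1 at P28. P7 was above P1 and P3 in every library, and at P28 only library 4 reached the P7 level. Without P28 library 4, edgeR called IL5RA lower at P28 than at P7 (adjusted p = 0.0400). The step from P3 to P7 passed with edgeR (adjusted p = 0.0413) and not with DESeq2, and it was lost without any single P3 or P7 library or P1 library 5 or 6 (adjusted p up to 0.117). With 1 read in the 3 P3 libraries, no fold is given.

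Among the chemokine receptors, CCR2, by which monocytes follow CCL2 out of the bone marrow, had 7.54, 7.27 and 4.94 CPM at P1, 8.31, 3.43 and 6.02 at P3, 10.15, 7.71 and 12.8 at P7, and 27.4, 15.1 and 12.2 at P28. All 3 P28 libraries were above all P1 libraries, and library 4 was the highest of the 12. CCR2 rose 2.76-fold from P1 to P28 (log2 fold change 1.47 ± 0.36 (SE), adjusted p = 0.0176). The call was lost without P28 library 4 (log2 fold change 1.04, adjusted p = 0.0789) and without P1 library 6 (adjusted p = 0.0763). How the counting placed reads that match more than 1 gene is not given in the sources used here. CCR1, a receptor of monocytes and neutrophils, stayed between 2.26 and 7.58 CPM and passed no test (P28 to P1 -0.32 on the log2 scale, adjusted p = 0.590).

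CD22, an inhibitory lectin of B cells, stood at 2.31, 1.30 and 2.47 CPM at P1, 4.06, 2.36 and 2.58 at P3, 4.40, 4.19 and 6.21 at P7, and 14.9, 9.22 and 10.1 at P28. Each P28 library was above each earlier one, and P7 was above P1 and P3. The rise was 5.62-fold from P1 to P28 (log2 fold change 2.49 ± 0.34 (SE), adjusted p = 0.000663), which held without any 1 library, and 2.31-fold from P7 (log2 fold change 1.21 ± 0.31 (SE), adjusted p = 0.0188), which was lost without P7 library 4, P7 library 5 or P28 library 4 (adjusted p up to 0.0856). CD37, a tetraspanin of mature B cells, had 1.19, 0.504 and 0.989 CPM at P1, 1.66, 1.65 and 1.41 at P3, 1.53, 1.53 and 1.88 at P7, and 4.25, 2.80 and 2.96 at P28. P1 was lowest and P28 highest, with no overlap among P1, P3 and P28. It rose 3.71-fold from P1 to P28 (log2 fold change 1.89 ± 0.35 (SE), adjusted p = 0.00406), held throughout, and its P7 to P28 call (log2 fold change 1.02 ± 0.33 (SE), adjusted p = 0.0481) was lost without 9 of the 12 libraries, each P7 and P28 library, P1 library 6 and P3 libraries 4 and 6.

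CD79A did not follow these B cell genes. It measured 627, 636 and 619.7 CPM at P1, 569.6, 524 and 633 at P3, 434, 351 and 511 at P7, and 564, 597 and 516 at P28, with P7 below P1 and P28 in every library and all 3 P28 libraries below all 3 at P1. In the edgeR fit of 4 ages no comparison passed, P28 to P1 being -0.17 on the log2 scale (adjusted p = 0.439) and P7 to P1 -0.54 (adjusted p = 0.0628). DESeq2 called it from P1 to P7 and over the 4 ages, and edgeR over the 4 ages when Metazoa_SRP genes were left out or at least 10 counts were required in all 12 libraries. With libraries left out, edgeR called P1 to P7 without P3 library 5 or 6, and P7 to P28 and the 4 ages jointly without P3 library 5 or P7 library 6. As stated above, its count was 42.6% to 48.0% of that of the gene it overlaps in every library.

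CD226 (DNAM-1), an activating receptor of T and NK cells, gave 0.373, 0.288 and 0.0824 CPM at P1, 0.462, 0.354 and 1.09 at P3, 0.629, 1.99 and 1.23 at P7, and 6.18, 1.24 and 2.17 at P28. Reads numbered 5, 4 and 1 at P1 and 77, 15 and 22 at P28, and library 4 held most of the P28 reads. P28 was above P1 in every library, by 12.3-fold (log2 fold change 3.62 ± 0.74 (SE), adjusted p = 0.00740). That call held without P28 library 4 (log2 fold change 2.68, adjusted p = 0.0302). The call over the 4 ages (adjusted p = 0.0137) was lost without that library (adjusted p = 0.0541). CD226 lies partly within RTTN, and its count was 0.102% to 8.92% of that gene's. CD5, a surface receptor of T cells and some B cells, had 0.746, 0.432 and 0.412 CPM at P1, 0.646, 0.354 and 0.469 at P3, 0.539, 0.731 and 1.06 at P7, and 3.45, 1.07 and 0.985 at P28. Here P28 library 4 stood apart, and the other 2 P28 libraries were close to P7 library 6. The 3.44-fold rise from P1 to P28 (log2 fold change 1.78 ± 0.54 (SE), adjusted p = 0.0415) was lost without that library (log2 fold change 0.93, adjusted p = 0.232) and without any single P1 or P7 library.

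The costimulatory ligands CD80 and CD86 are shown by antigen-presenting cells to CD28 on T cells. CD80 was at 7.91, 5.18 and 4.45 CPM at P1, 5.82, 3.90 and 6.56 at P3, 5.48, 5.85 and 4.91 at P7, and 15.4, 8.81 and 9.95 at P28, and CD86 at 13.3, 9.72 and 8.07 CPM at P1, 6.19, 5.55 and 7.03 at P3, 8.53, 6.91 and 10.96 at P7, and 25.5, 15.1 and 12.6 at P28. For both, P28 was above P7 in every library, and library 4 was the highest of the 12. CD80 rose 1.95-fold from P1 (log2 fold change 0.96 ± 0.29 (SE), adjusted p = 0.0438) and 2.10-fold from P7 (log2 fold change 1.07 ± 0.30 (SE), adjusted p = 0.0242). CD86 rose 2.02-fold from P7 (log2 fold change 1.02 ± 0.29 (SE), adjusted p = 0.0283) and did not pass against P1 (log2 fold change 0.78 ± 0.29 (SE), adjusted p = 0.0872). Without P28 library 4 none of these calls remained, the P7 to P28 values being log2 fold change 0.79, adjusted p = 0.103 for CD80 and log2 fold change 0.66, adjusted p = 0.126 for CD86, and for CD80 against P1 log2 fold change 0.67, adjusted p = 0.180. CD80 against P7 was also lost without any single P7 library and CD86 without P7 library 4 or 5, and CD80 against P1 without P1 library 5 or 6, any single P7 library or P28 library 6. CD274 (PD-L1), a ligand that restrains T cells, did not pass at P28 against P1 (log2 fold change 0.86 ± 0.32 (SE), adjusted p = 0.0875).

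Several members are carried widely outside leukocytes. CD109, a membrane-anchored protein that binds TGF-beta and its receptors, had 134, 114 and 108 CPM at P1, 65.9, 62.4 and 122 at P3, 116, 125 and 107 at P7, and 26.1, 31.4 and 34.3 at P28. At P3, libraries 4 and 5 were below every P1 library and library 6 was within the P1 range, while at P28 all 3 were below every earlier library. It fell 3.88-fold from P1 to P28 (log2 fold change -1.96 ± 0.23 (SE), adjusted p = 0.000316) and 3.79-fold from P7 (log2 fold change -1.92 ± 0.23 (SE), adjusted p = 0.000350), and both calls held without any 1 library. Without P3 library 6, edgeR also called CD109 between P1 and P3 and between P3 and P7. CD248 (endosialin), a marker of pericytes and fibroblasts, showed 13.5, 11.4 and 13.2 CPM at P1, 9.51, 28.4 and 15.9 at P3, 10.4, 20.1 and 7.52 at P7, and 3.85, 6.42 and 4.83 at P28. P28 was below all other libraries, and P3 and P7 were scattered. The fall was 2.52-fold from P1 (log2 fold change -1.33 ± 0.41 (SE), adjusted p = 0.0464) and 2.52-fold from P7 (log2 fold change -1.34 ± 0.41 (SE), adjusted p = 0.0402). Both were close to the threshold, with adjusted p values up to 0.142 and 0.201 when libraries were left out. The first was lost without any single P1 or P28 library, P3 library 6 or P7 library 4, and the second without any single P28 library, P1 library 5 or 6, or P7 library 4 or 5.

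CD47, the signal by which cells keep phagocytes from engulfing them, was among the more abundant, with 329, 317 and 315 CPM at P1, 299, 213 and 264 at P3, 430.1, 399.5 and 388 at P7, and 375, 336 and 336 at P28. Every P3 library was below, and every P7 library above, all 3 at P1. The rise from P3 to P7 was 1.57-fold (log2 fold change 0.65 ± 0.13 (SE), adjusted p = 0.0277), lost without any single P7 library or P1 library 5 or 6 (adjusted p up to 0.0995) and in the edgeR fit of the 2 ages alone. CD82, a tetraspanin, measured 32.2, 40.5 and 50.8 CPM at P1, 44.3, 43.2 and 43.4 at P3, 48.4, 51.3 and 51.8 at P7, and 28.2, 39.3 and 36.5 at P28. P7 was above P28 in every library, a 1.46-fold difference (log2 fold change -0.55 ± 0.17 (SE), adjusted p = 0.0438) that was lost without any single P7 or P28 library or P1 library 5 (adjusted p up to 0.148). CD164, CD200, CD14 and CD24 passed no test in the edgeR fit of 4 ages, with log2 fold changes from P1 to P28 of 0.12, -0.36, 0.25 and -1.66. From P7 to P28, DESeq2 called CD14, and edgeR on the 2 ages alone called CD14 and CD164. CD24, a small glycoprotein of immature cells, was called lower at P28 than at P1 when P28 library 4 was left out (log2 fold change -2.56, adjusted p = 0.0384), and lower than at P1 and at P7 when either that library or P1 library 6 was, with 12, 2 and 4 reads at P28.

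Among the sensors and transcription factors, edgeR made no call in the fit of 4 ages with all 12 libraries. DESeq2 called TLR4 from P1 to P7 and IRF3 over the 4 ages. With libraries left out, edgeR called IRF3 from P1 to P28 without P3 library 5. Without P3 library 4 it called IRF3 from P3 to P7 and over the 4 ages. TLR4, the receptor of bacterial lipopolysaccharide, stood at 19.4, 19.2 and 20.5 CPM at P1, 27.6, 21.5 and 24.9 at P3, 30.4, 23.99 and 39.99 at P7, and 31.0, 21.9 and 25.7 at P28. The P1 libraries were below all others and P7 was highest, yet P7 to P1 did not pass with edgeR (log2 fold change 0.67 ± 0.20 (SE), adjusted p = 0.0927). IRF8 read 2189.7, 1863 and 2035 CPM at P1, 1585, 2062 and 2292 at P3, 1619, 1663 and 1381 at P7, and 2284, 2009 and 1667 at P28, with P7 lowest on average and below P1 in every library. IRF8 from P1 to P28 was -0.030 on the log2 scale, and turned to 0.025 without P1 library 4 and 0.081 without P28 library 6. IRF3, the factor that induces type I interferon, and IRF2BP1 were at -0.36 (adjusted p = 0.115) and 0.30 (adjusted p = 0.263).

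**Figure D4:**
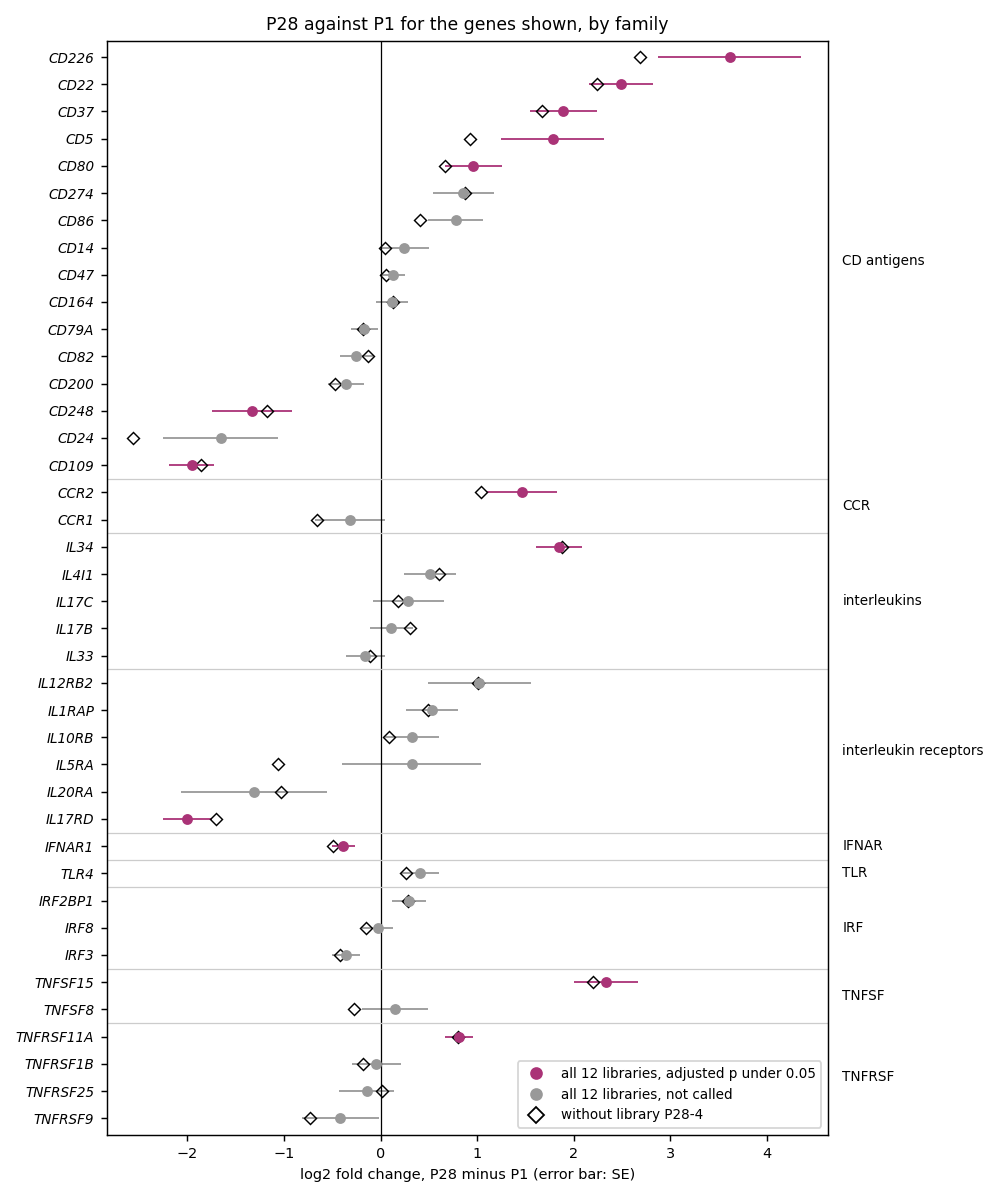
Log2 fold change from P1 to P28 with its SE for 40 of the 41 genes by family, filled in purple where the adjusted p was under 0.05 and in grey otherwise, with an open diamond for the same value without P28 library 4. Without that library CD5, CCR2, CD80 and CD248 lose their calls, while CD226, CD22, CD37, TNFSF15, IL34, TNFRSF11A, CD109, IL17RD and IFNAR1 keep their calls.

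Among the 41 genes, P3 library 5 was the highest of the 12 libraries for 8 and the lowest for 11, in shares of 22.2% and 22.7% over all genes. Without it, calls went from 1 to 8 for P1 to P7 (111 to 329 over all genes), from 14 to 16 for P1 to P28 (846 to 1414), from 2 to 1 for P3 to P7 (122 to 42) and from 14 to 17 for P7 to P28 (1040 to 1562), and stayed at 0 for P1 to P3. Gained without P3 library 5 from P1 to P7 were CD22, CD47, CD79A, IL10RB, IL12RB2, IL17B and TNFSF15, and from P1 to P28 IL12RB2 and IRF3. P28 library 4 was the highest for 11 of the 41 genes and the lowest for 6, against 14.2% and 12.2% of all genes. It was also the highest for 8 of the 10 genes called higher at P28 than at P1. Such genes were picked for high P28 levels, and the share over all 408 genes so called was not counted. Without P28 library 4, 6 genes were called higher at P28 than at P1, all among those 10, and 4 were called lower, 3 of them among the 4 named above together with CD24, in a fit that called 520 of 5526 genes against 846 with all libraries. The P7 to P28 calls went from 14 to 9, with 3 higher and 6 lower, while those over all genes went from 1040 to 735. Of the 9, 7 were among the 14 reported, and CD24 and IL5RA were newly called lower. Among the 19 genes under the read minimum, CD177 had 15 reads in P3 library 6 and 0 in P28 library 4. P28 library 4 alone held the highest count for 6 of the 19, a share not counted over all genes. CXCR6, a receptor of tissue-resident T and NK cells, had 51 reads there and at most 5 elsewhere, and CCR8, a receptor of regulatory T cells, 15 and at most 1. CD96, a T and NK cell receptor, had 29 against at most 10, CD6, a T cell surface protein, 24 against at most 9, and IL12RB1, the partner chain of IL12RB2, 13 against at most 7. What set this pig's sample apart was not tested.

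Marker genes of the cell types the tissue could hold were read beside these values. The 3 tested pan-leukocyte markers (HCLS1, ITGB2 and LAPTM5) did not pass at P28 against P1, with log2 fold changes of -0.13, -0.23 and 0.64, the last with an adjusted p of 0.0805, and their summed level was 93.7 to 133.5 CPM at P1 and 114.5 to 177 at P28. Of 8 macrophage and monocyte markers, 3 were called higher at P28 than at P1 (TYROBP, C1QB and SPI1), where 7.38% of all genes were, and their sum was 514 to 719 CPM at P1, 439 to 582 at P7 and 789 to 1233 at P28, highest in library 4. From P7 to P28, 5 of the 8 were called higher (TYROBP, C1QA, C1QC, C1QB and SPI1), against 8.34% of all genes. Both tested T cell markers, LCK and CD5, were higher at P28, the sum being 1.22 to 1.72 CPM at P1, 1.89 to 5.15 at P7, and 3.54, 3.55 and 10.5 at P28. The 10.5 is library 4, the other 2 P28 libraries lie within the P7 range, and without library 4 the CD5 call was lost (log2 fold change 0.93, adjusted p = 0.232). The genes of the CD3 complex, which define T cells, were not analysed here, and THEMIS was under the read minimum.

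B cell markers tested were CD22, CD37 and CD79A, each a gene of the set, and PAX5 was under the read minimum. MS4A2, the mast cell chain of the IgE receptor, rose from 1.68 ± 0.535 CPM (SD) at P1 to 15.2 ± 6.66 at P28 (log2 fold change 3.16 ± 0.37 (SE), adjusted p = 0.000316), and HDC, the second mast cell marker, did not pass (0.36 on the log2 scale). For neutrophils CSF3R was called higher (log2 fold change 1.41 ± 0.43 (SE), adjusted p = 0.0415) and LTF was not, and the NK marker NKG7 had a log2 fold change of 0.12. Both tested fibroblast markers fell, FBN1 by 1.82 and TCF21 by 1.05 on the log2 scale from P1 to P28. The summed fibroblast level was 3636 to 4040.1 CPM at P1 and 972 to 1214 at P28. Of 5 endothelial markers, TEK was called higher at P28 than at P1 (log2 fold change 0.53 ± 0.15 (SE), adjusted p = 0.0356) and the other 4 did not pass, with a summed level of 728 to 941 CPM at P1 and 726 to 768 at P28. Of 6 heart muscle markers, MYBPC3 rose (log2 fold change 0.57 ± 0.14 (SE), adjusted p = 0.0158) and ACTC1 fell (log2 fold change -0.60 ± 0.17 (SE), adjusted p = 0.0340). The mural marker PDGFRB (-0.11 on the log2 scale) and the red cell marker EPB42 (-0.53) did not pass in that comparison. From P7 to P28, MS4A2, CD22, CD37 and the heart muscle markers TNNC1, TNNI3 and MYBPC3 were called higher, and FBN1, TCF21, EPB42 and the endothelial markers ERG and TIE1 lower, while no tested pan-leukocyte, T cell, NK cell, neutrophil or mural marker passed. The part of these cell types in the levels of the 41 genes was not tested.

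Signalling genes downstream of the receptors were read as lists, beside 7.38% of all genes called higher and 7.93% lower from P1 to P28. Of 9 JAK-STAT genes, CISH, a cytokine-induced inhibitor, rose from 121 ± 12.2 to 304 ± 63.5 CPM (SD) between P1 and P28 (log2 fold change 1.33 ± 0.17 (SE), adjusted p = 0.000558), and JAK3, the kinase of the common gamma chain, rose as well (log2 fold change 0.93 ± 0.21 (SE), adjusted p = 0.0115). The other 7 did not pass in that comparison. Of 9 genes of TLR and IL-1 signalling 1 was called, NFKBIZ (log2 fold change 0.81 ± 0.21 (SE), adjusted p = 0.0238). In TNF receptor signalling, TNFAIP3, TRAF1 and TRADD had 0.50, 0.51 and -0.42 on the log2 scale and did not pass. Among 12 other cytokine receptors and ligands, IFNLR1, the interferon lambda receptor (log2 fold change 2.02 ± 0.37 (SE), adjusted p = 0.00362), XCR1, a chemokine receptor of dendritic cells (log2 fold change 3.59 ± 0.81 (SE), adjusted p = 0.0116), and CSF3R were higher at P28. XCR1 was at 0.149, 0.360 and 0.0824 CPM at P1, 1.02, 0.236 and 0.313 at P3, 0.719, 0.332 and 0.899 at P7, and 5.30, 1.07 and 1.18 at P28, so its P1 level rests on few reads and P28 library 4 was again the highest. CSF1R, the receptor of IL34, had 125, 93.6 and 134 CPM at P1, 106, 163 and 85.7 at P3, 128, 121 and 127 at P7, and 226, 172 and 165 at P28. All 3 P28 libraries were above all others, and the difference from P1 did not pass (log2 fold change 0.67 ± 0.22 (SE), adjusted p = 0.0539).

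Small RNA libraries of the same batch gave another readout, through miRNAs enriched in leukocytes. Of the 8 entries tested, 5 were higher and 1 lower at P28 than at P1, where 20.0% and 22.0% of 305 entries were, and 42.0% in all. miR-150, abundant in mature lymphocytes, stood at 8.32, 8.94 and 7.60 CPM of miRNA reads at P1, 16.9, 9.83 and 14.9 at P3, 19.3, 22.3 and 18.9 at P7, and 52.8, 42.5 and 54.1 at P28. Its 2 precursors carry the same values and count as 2 entries. It rose 5.97-fold from P1 to P28 (log2 fold change 2.58 ± 0.23 (SE), adjusted p = 5.01e-07) with no overlap between P28 and any earlier library.

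miR-142-5p and miR-142-3p, the 2 arms of a precursor found throughout blood cells, rose 3.74-fold (log2 fold change 1.90 ± 0.27 (SE), adjusted p = 7.86e-05) and 3.01-fold (log2 fold change 1.59 ± 0.22 (SE), adjusted p = 7.40e-05). The 5p arm measured 25.0, 32.2 and 26.5 CPM at P1, 33.9, 44.2 and 46.0 at P3, 42.2, 49.7 and 40.9 at P7, and 161, 70.9 and 81.9 at P28, with library 4 again the highest. miR-142-3p was also higher at P7 (log2 fold change 1.30 ± 0.22 (SE), adjusted p = 0.000729; 4 of 8 entries, 14.1% of all entries, with 16.7% lower and 30.8% together) and at P3 (log2 fold change 0.80 ± 0.22 (SE), adjusted p = 0.0442; 1 of 8, 5.25%, with 1.31% lower and 6.56% together), the last call being lost without 9 of the 12 libraries in turn, each of P1 and P7, P3 libraries 5 and 6, and P28 library 6.

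miR-146a-5p, which is induced by NF-kappaB, was at 114, 83.9 and 77.7 CPM at P1, 81.0, 82.3 and 39.4 at P3, 117, 108 and 83.6 at P7, and 239, 134 and 191 at P28, and miR-155-5p, induced in activated leukocytes, at 78.7, 60.0 and 55.4 CPM at P1, 53.6, 45.9 and 33.3 at P3, 65.5, 65.6 and 80.0 at P7, and 41.7, 30.5 and 23.0 at P28. The first was highest at P28 and the second lowest, and neither P28 group overlapped P1. miR-146a-5p rose 2.05-fold (log2 fold change 1.03 ± 0.27 (SE), adjusted p = 0.00702), and miR-155-5p fell 2.03-fold (log2 fold change -1.02 ± 0.24 (SE), adjusted p = 0.00345). miR-342 was higher at P7 than at P1 (log2 fold change 0.85 ± 0.16 (SE), adjusted p = 0.00150) and not at P28 (log2 fold change 0.22 ± 0.16 (SE), adjusted p = 0.299). miR-146b did not pass at P28 (log2 fold change -0.70 ± 0.31 (SE), adjusted p = 0.0832), though it was called lower without P1 library 5, without P28 library 4, or with the column number as a replicate block.

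**Figure D5:**
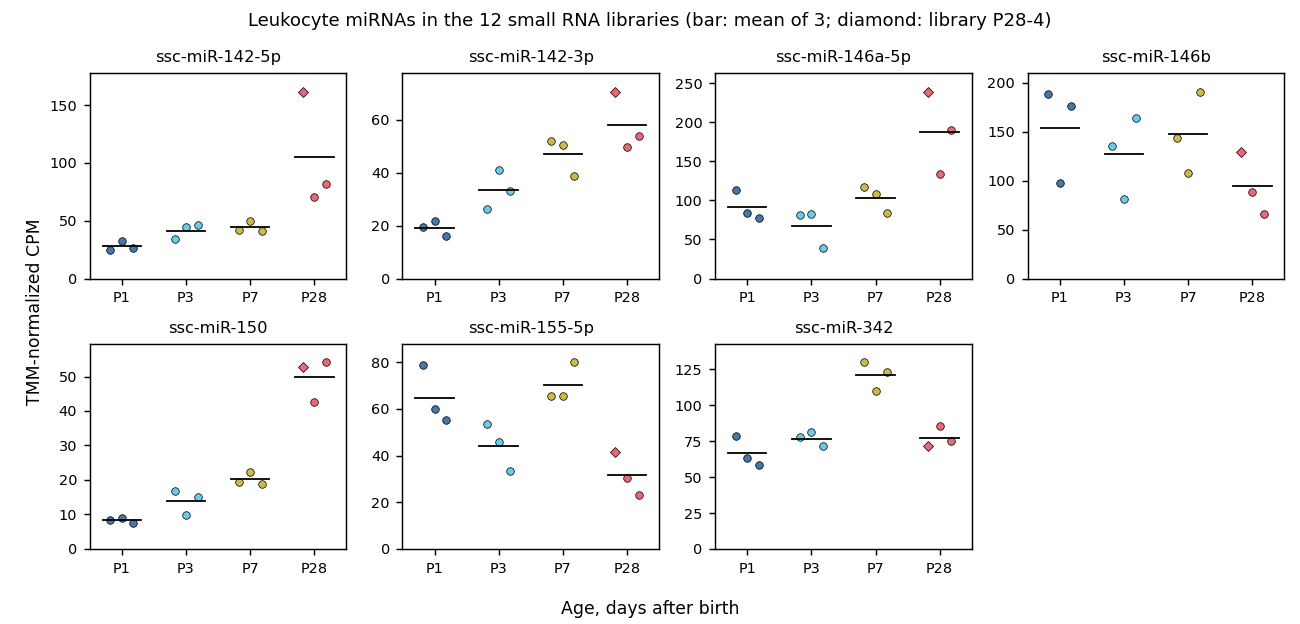
TMM-normalized CPM of 7 leukocyte miRNAs in the 12 small RNA libraries by age (linear axes from 0), with a bar at the mean of 3 and a diamond for P28 library 4. miR-150 and miR-142-5p at P28 lie above every earlier library, miR-155-5p at P28 lies below every P1 library, and miR-342 is highest at P7.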

How the data were processed

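RNA of 12 pig hearts (batch cd, 3 animals at each of 4 ages) was sequenced by the study after removal of ribosomal RNA, in stranded total RNA libraries and in small RNA libraries. The authors aligned reads with STAR 2.7.9a and summarised quality with MultiQC 1.11, per the labels, which name Sscrofa10.2. The gene counter and its strand setting are not given in the sources used here. Of the 60 candidate symbols, 59 are in RefSeq for Sscrofa11.1 and all 59 overlap the listed positions there, so coordinates are given as the table lists them.

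The deposited gene table holds raw read counts, and the deposited miRNA table holds expected counts, of which 81.0% were whole and which were rounded here. The last line of the gene table carries no counts and was left out. Circular RNA tables were not used.

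Genes with at least 10 counts in at least 3 libraries were kept (5526 genes, and 305 miRNA entries under the same rule). TMM scaling and the quasi-likelihood test of edgeR 4.0.16 (R 4.3.3, limma 3.58.1) were fitted over all kept features and the 4 ages together, with Benjamini-Hochberg adjustment and a threshold of 0.05. Values in every library are given for members called in any test and for the member with the highest mean level in each family. The others are given by counts and ranges. SE is the log2 fold change divided by the square root of F. Totals of 8887176 to 14883849 listed counts set the precision. The table's columns map to an age and a number only, and pigs differ between ages, so p-values measure the spread between animals within an age. A single member of the set enters the counts and is not reported here by itself. Members and lists were chosen with earlier results of these data known. Alternatives used DESeq2 1.42.0, DESeq2 size factors, other count filters, fits of 2 ages alone, the study's thresholds, library sizes without Metazoa_SRP genes, a replicate block and each library left out. The edgeR fits as reported, over genes at each comparison and over miRNAs from P1 to P28, were tested on simulated data. Changes were simulated at P28 only, so detection of changes among P1, P3 and P7 was not tested. Summaries and figures used Python 3.11.15, pandas 2.3.3 and matplotlib 3.10.9.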

Additional observations from a re-analysis of the deposited data

How the results depend on the processing

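The number of the 41 genes called moved by over 1.5 times only in comparisons of the first week, apart from fits that left a library out. P1 to P3 gave 0 calls as reported, 1 (IL20RA) with the DESeq2 test, with no filter and when fitted on the 2 ages alone, and 11 by the study's thresholds. P1 to P7 gave 1 as reported, 8 with DESeq2, 2 with no filter, 2 with at least 10 counts in all 12 libraries, 6 on the 2 ages alone and 14 by the study's thresholds. Over all genes tested, these gave 111 as reported, 364 with DESeq2, 194 with no filter, 107 with the stricter filter and 345 on the 2 ages alone. P3 to P7 gave 2 as reported, 5 with DESeq2, 1 with at least 10 counts in all 12 libraries, 0 on the 2 ages alone (edgeR, CD47 and IL5RA lost) and 9 by the study's thresholds, against 122, 364, 119 and 15 of all genes in the first 4. For P1 to P3, all genes gave 3 as reported, 122 with DESeq2, 34 with no filter and 4 on the 2 ages alone. The study's thresholds took 10.6%, 11.7% and 13.0% of all genes in these 3 comparisons (P1 to P3, P1 to P7 and P3 to P7). Single later calls were also lost. From P1 to P28, CD5 and CD80 were lost and IL4I1 was gained on the 2 ages alone. IFNAR1 was lost with no filter, and CD226, CD37 and CD5 failed the filter of 10 counts in all 12 libraries. From P7 to P28, CD37 and CD82 were lost with no filter, and CD37 under that stricter filter. For miRNAs from P1 to P3, the 1 call was lost with DESeq2 size factors (0) and with no filter (0).

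Leaving out 1 library at a time gave 0 to 1 calls for P1 to P3, 0 to 8 for P1 to P7, 9 to 16 for P1 to P28, 0 to 3 for P3 to P7, 7 to 17 for P7 to P28 and 14 to 23 over the 4 ages, and for miRNAs 0 to 2, 4 to 5 and 6 to 7. The log2 fold change from P1 to P28 changed sign for 4 of the genes given with a value in every library, none of which passed that test. IL5RA ran from -1.06, without P28 library 4, to 0.80, and IL17B from -0.10, without P28 library 5, to 0.31. IRF8 ran from -0.15 to 0.081, turning to 0.025 without P1 library 4 and 0.081 without P28 library 6. TNFRSF1B ran from -0.19 to 0.11, turning to 0.11, 0.022 and 0.014 without P1 library 4, P28 library 5 and P28 library 6. The cause was not tested.

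The labels give column numbers no shared litter, batch or day, and pigs differ between ages. Over the 18 same-numbered pairs, deviations correlated at -0.186 to 0.331 (median 0.035). Over the 36 pairs of different numbers they correlated at -0.263 to 0.249 (median -0.018). Of the 12 libraries, 6 matched their own number best. The 3 same-numbered pairs of P1 and P28 each exceeded 0.1 (0.331, 0.138 and 0.161), while in each other pair of ages at least 1 did not. Pairs of P1 and P28 with different numbers ran from -0.263 to 0.198. With the number as a replicate block, calls were 0, 1 and 14 for P3, P7 and P28 against P1 (the 14 reported), 2 for P3 to P7, 13 for P7 to P28 (CD37 lost) and 22 over the 4 ages (CD5 lost). For miRNAs they were 1, 4 and 7, the last with miR-146b gained. Genes under about 10 reads, such as IL5RA, are limited by depth.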
